A study of Rattus norvegicus with 6 samples.

Results

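HOX genes encode homeodomain transcription factors that mark position along the body axis and the limb. The 22 described here are the genes for which the annotation of the array platform gave a row exactly 1 symbol made of Hoxa, Hoxb, Hoxc or Hoxd and a number. They are 22 of 14506 genes named in this way, and none had more than 1 row. The GRCr8 gene table lists 39 HOX genes of the rat, of which 17 were not analysed here, among them Hoxa9, Hoxa10, Hoxa13, Hoxc10, Hoxd11 and Hoxd12. Measured were 5 of 11 genes of cluster A, 7 of 10 of cluster B, 4 of 9 of cluster C and 6 of 9 of cluster D. Of the paralogs 9 to 13, called limb-type here by number alone in every cluster, 8 of 16 were measured, and of the paralogs 1 to 8, 14 of 23.

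The cells came from long bones of newborn Sprague Dawley rats, 2 to 5 days old, with no genetic change named. They were left to adhere to plates coated with mouse prothrombin (PT, the precursor of the clotting protease thrombin) or with bovine milk osteopontin (OPN, an acidic bone matrix protein that integrins bind), and RNA from the cells that stuck was hybridised to Rat Gene 1.0 ST arrays (Affymetrix). There were 3 PT arrays (replicates 1, 2 and 4) and 3 OPN arrays (replicates 2, 3 and 4). Whether arrays of 1 coating stem from different animals is not in the labels, and the p-values therefore speak of array-to-array spread alone, which may be technical. The adherent cells were a mixture, and fewer cells of a type cannot be told apart from less RNA per cell. Signals are linear PLIER values, a summary of the probes of 1 row, and array medians lay between 207.8 and 231.4 units.

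HOX genes lie in 4 clusters, and genes at the same place in different clusters are paralogs that carry the same number. Low numbers are switched on early and toward the head, high numbers later and toward the tail. In the limb bud the genes of clusters A and D with numbers 9 to 13 act in turn from shoulder or hip to digits, and mesenchymal cells of the adult skeleton are known to keep a HOX pattern of their place of origin. Several genes with low or middle numbers, such as Hoxb4 and Hoxa7, are also active in blood progenitors. Long bones hold both kinds of cell, and the HOX values set the cells caught by PT beside those caught by OPN.

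RefSeq promoters were matched for 11 of the 22 genes. The 3 windows shown cover the 250 bases before the annotated start (GRCr8, RefSeq), each 5′ to 3′ on the strand of its gene, with CG dinucleotides in capitals. They are shown because Hoxd9 and Hoxd13, from the same end of cluster D, had differences of opposite sign, while that of Hoxa11 was near 0. None of the 3 genes was called, and the sign of Hoxd13 turned in 2 alternatives. A link between sequence and difference was not tested. The Hoxd9 window lies at chr3:80007756-80008005 (plus strand), that of Hoxd13 at chr3:79977827-79978076 (plus strand) and that of Hoxa11 at chr4:82676802-82677051 (minus strand).
Hoxd9: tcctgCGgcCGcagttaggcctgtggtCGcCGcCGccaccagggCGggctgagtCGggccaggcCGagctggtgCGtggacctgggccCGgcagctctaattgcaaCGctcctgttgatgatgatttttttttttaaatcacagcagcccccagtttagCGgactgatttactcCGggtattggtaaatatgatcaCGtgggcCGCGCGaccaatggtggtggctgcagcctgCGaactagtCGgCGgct
Hoxd13: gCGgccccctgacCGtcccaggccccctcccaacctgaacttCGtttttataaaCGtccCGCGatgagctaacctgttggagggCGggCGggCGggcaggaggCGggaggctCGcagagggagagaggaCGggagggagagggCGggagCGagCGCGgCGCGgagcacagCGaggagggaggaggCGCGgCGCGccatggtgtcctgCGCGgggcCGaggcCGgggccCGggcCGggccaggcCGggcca
Hoxa11: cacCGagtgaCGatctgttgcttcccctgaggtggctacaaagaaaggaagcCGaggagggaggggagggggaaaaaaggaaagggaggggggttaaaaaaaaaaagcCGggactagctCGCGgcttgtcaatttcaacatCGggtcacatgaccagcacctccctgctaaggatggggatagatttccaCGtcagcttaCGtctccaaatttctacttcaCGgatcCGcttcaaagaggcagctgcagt

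The windows of Hoxd9, Hoxd13 and Hoxa11 held 20, 30 and 11 CG dinucleotides. Over the 11 HOX windows the median was 20, between 3 in Hoxc4 and 32 in Hoxa4, against a median of 6 in the 27457 rat promoters of that length. Their median share of G and C was 60.0%, against 52.0% in all promoters. TATAAA, the core of a TATA box, was found in 1 HOX window, that of Hoxd13, where an overlapping match stands on each strand, and in 13.1% of all promoters. TGATTNAT, a site of HOX and PBX pairs, was found in the Hoxa2 window alone and in 2.81% of all promoters. TTTATNG, bound by HOX proteins with high numbers, and TAATTA were found in 0 of the 11 windows and in 10.1% and 4.94% of all promoters, with both strands searched each time.

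No HOX gene was called between the coatings. In limma's test over all 29215 rows, 0 of the 22 HOX genes passed an adjusted p of 0.05 in either direction, against 5.82% of all rows (5.05% higher and 0.77% lower on OPN). At that share about 1 call would come among 22 rows, so the count of 0 lies near the background. Differences are OPN minus PT of log2(signal + 16), a scale that understates changes of dim rows. They ran from -0.18 for Hoxb8 to 0.27 for Hoxa5, with a median of -0.01 beside 0.03 over all rows. Of the 22, 11 lay above and 11 below 0, a split that became 4 and 18 with equal array medians and 5 and 17 with quantile normalisation.

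A missed threshold does not show that a gene was equal on both coatings, and the intervals give the range of signal differences the arrays allow. Which rows carried signal above background was not tested. For a row at background the interval does not bound a difference in HOX RNA. Each of the 22 95% intervals lay inside a 2-fold difference in either direction (log2 -1 to 1), and 21 lay inside -0.5 to 0.5. The lowest bound was -0.43, for Hoxd13, and the highest 0.53, for Hoxd9. All intervals also lay inside 2-fold with an offset of 1 in place of 16, where the bounds were -0.47 and 0.60. At an unadjusted p of 0.05 there were 2 of 22 HOX genes, Hoxa5 and Hoxd9, beside 17.7% of all rows. PT and OPN arrays were fully separate in 1 HOX gene, Hoxa5, beside 23.7% of all rows.

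**Figure D1:**
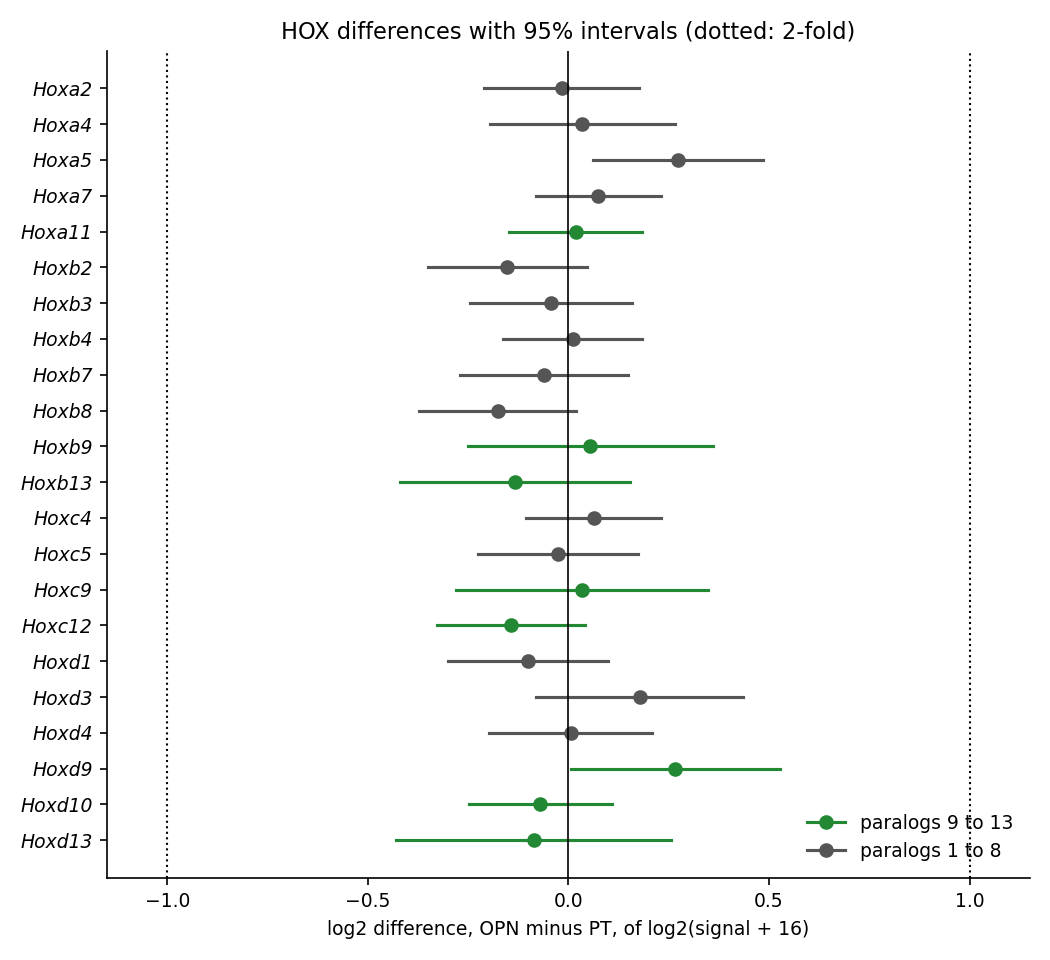
Log2 difference (OPN minus PT, of log2(signal + 16)) of each of the 22 HOX genes with its 95% interval, green for paralogs 9 to 13 and grey for paralogs 1 to 8, with dotted lines at a 2-fold difference. All intervals lie between -0.43 and 0.53, and those of Hoxa5 and Hoxd9 lie above 0.

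Signal levels of different rows depend on their probes and are not ranked between genes. As a description, 6 HOX rows lay above the array median on all 6 arrays (Hoxb3, Hoxb4, Hoxb7, Hoxd1, Hoxd4 and Hoxd13) and 11 below it on all 6. Detection calls were not used here, so rows of 33 measured genes not expected in bone, such as those of retina, liver and testis, were set beside them. Their mean signals had a median of 173 units and a 90th percentile of 289. Of the HOX rows, 12 of 22 lay above that median and 6 above that percentile, the same 6 genes. No HOX row lay above the highest of the 33, the testis gene Prm1 at 1015 units. Which HOX rows carried signal above background was not tested. None of the 33 genes was called, beside 5.82% of all rows, and their median difference was -0.04. At that share few calls would come among 33 genes.

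**Figure D2:**
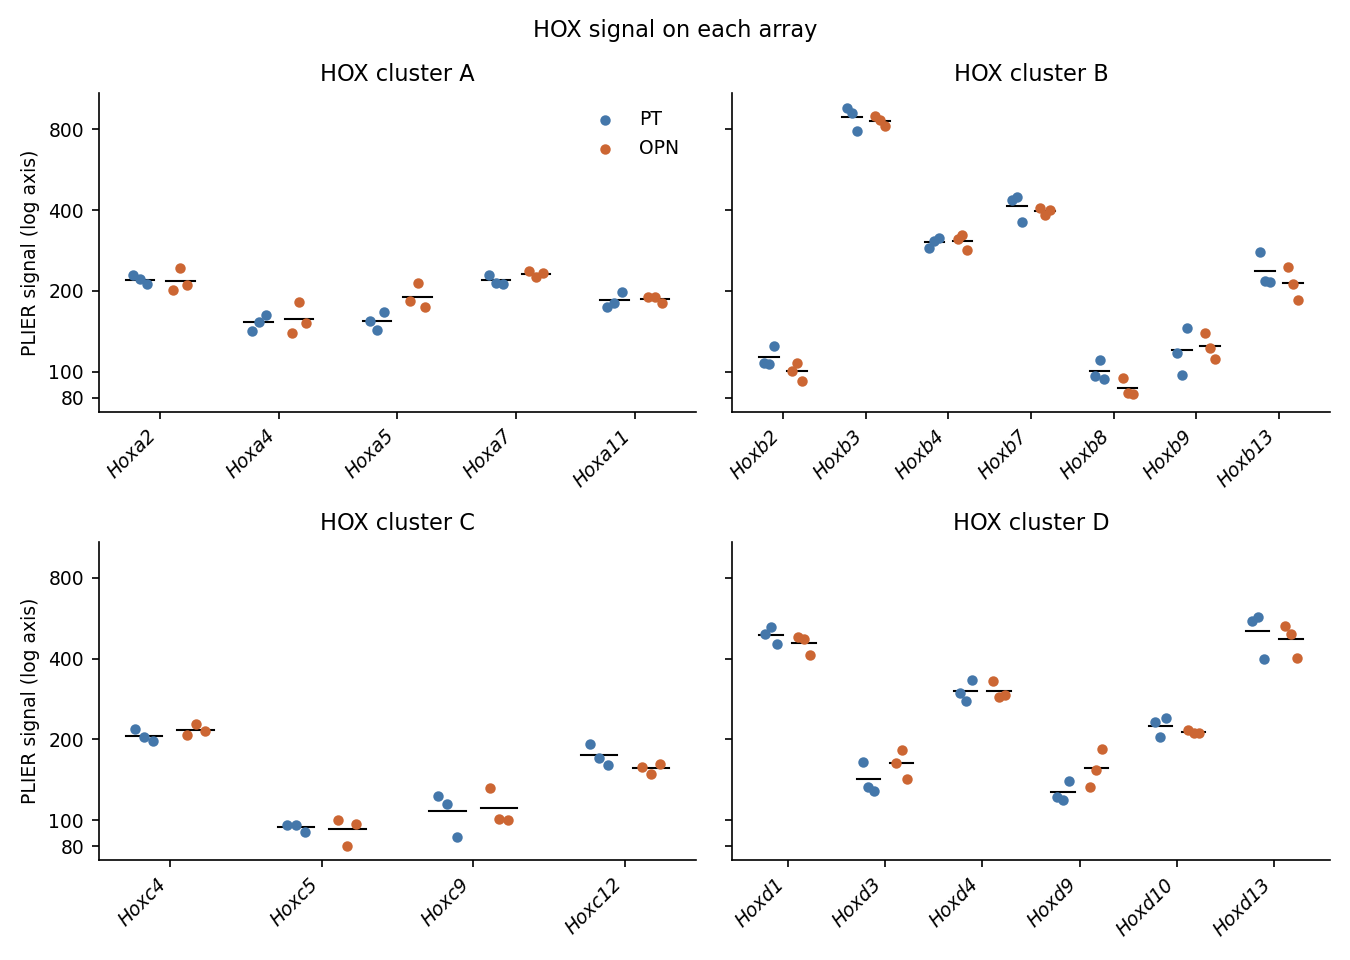
PLIER signal (log axis) of each HOX gene on each array, by cluster, blue for PT and orange for OPN, with black bars at group means. Points of the coatings overlap in every gene except Hoxa5, and Hoxb3 lies between 791 and 962 units.

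Among the limb-type genes of cluster D, Hoxd9, which acts in the upper segment of the limb, had 122, 119 and 140 units on PT 1, 2 and 4 and 133, 154 and 184 on OPN 2, 3 and 4. OPN arrays were mostly the higher ones, but OPN 2 lay below PT 4. The log2 difference was 0.27 (SE 0.11, adjusted p = 0.271 in limma), the largest of the paralogs 9 to 13. Hoxd10, with a role in the hindlimb skeleton and its innervation, had 232, 203 and 240 units on PT and 217, 211 and 212 on OPN. Its OPN arrays sat within the PT range, with a difference of -0.07 (SE 0.08, adjusted p = 0.735).

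Hoxd13, needed for digit formation, had 553, 571 and 400 units on PT 1, 2 and 4 and 530, 493 and 401 on OPN 2, 3 and 4. The arrays numbered 4 were the lowest of both coatings, and the others lay between 493 and 571. Its PT mean was 508 ± 94.2 and its OPN mean 475 ± 66.7 units (SD, n = 3), a difference of -0.09 with the largest error of the 22 genes (SE 0.15, adjusted p = 0.841). The difference was -0.25 without PT replicate 4, and its sign turned without OPN replicate 4 (0.027) or PT replicate 2 (0.0034).

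Hoxa11, which patterns forearm and lower leg, had 175, 180 and 198 units on PT and 190, 190 and 181 on OPN. The OPN values fell inside the PT range, and the difference was 0.02, with a 95% interval from -0.15 to 0.18. In cluster C, Hoxc9, a thoracic gene, had 123, 115 and 86.6 units on PT and 132, 101 and 100.1 on OPN (difference 0.03, SE 0.14). Hoxc12, a gene of posterior tissues and hair follicles, had 192, 171 and 161 units on PT and 158, 149 and 162 on OPN. Its difference was -0.14 (SE 0.08, adjusted p = 0.429), and OPN 4 overlapped the lowest PT array. In cluster B, Hoxb9 had 117, 97.5 and 146 units on PT and 140, 122 and 111 on OPN (0.05, SE 0.13). Hoxb13, known from the tail bud and prostate, had 278, 217 and 216 units on PT and 246, 213 and 185 on OPN (-0.13, SE 0.13). In Hoxc9, Hoxb9 and Hoxb13 the arrays of the coatings overlapped.

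Of the 8 limb-type genes 4 lay above and 4 below 0, with a median of -0.03, and of the 14 others 7 lay on each side, with a median of -0.01. The limb-type set goes by number alone and includes Hoxb9, Hoxb13, Hoxc9 and Hoxc12, which lie outside clusters A and D. Both sets held 1 gene with an unadjusted p under 0.05. With equal array medians the medians were -0.09 and -0.07. Centred per gene, the limb-type genes averaged 0.004 ± 0.062 on the PT arrays and -0.004 ± 0.067 on the OPN arrays (SD, n = 3), and the others -0.002 ± 0.026 and 0.002 ± 0.051. The groups thus overlapped in both sets, and the difference between the sets was given no test because members are not replicates. Over the 22 genes, which share their arrays, paralog number and log2 difference had a Spearman correlation of -0.11 and a Pearson correlation of -0.16, given as a description.

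**Figure D3:**
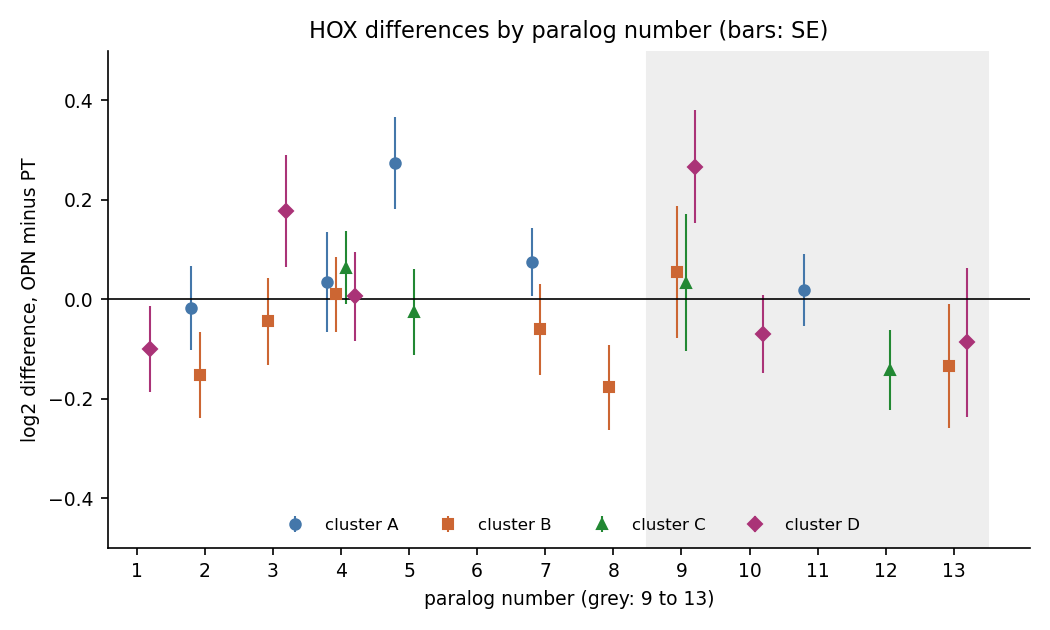
Log2 difference (OPN minus PT) of each HOX gene against its paralog number, with SE bars and a colour per cluster, paralogs 9 to 13 on grey. Differences scatter around 0 at both ends of the clusters, from -0.18 for Hoxb8 to 0.27 for Hoxa5.

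Among the other genes, Hoxa5, which acts in the neck and rib region and in lung, was the only one whose coatings were separate. It had 155, 143 and 166 units on PT 1, 2 and 4 and 184, 213 and 175 on OPN 2, 3 and 4. Every OPN array was above every PT array, though OPN 4 and PT 4 differed by few units. Its mean went from 155 ± 11.8 units on PT to 191 ± 20.3 on OPN (SD, n = 3). On the log2(signal + 16) scale this is 1.21-fold, with a 95% interval of the log2 value from 0.06 to 0.49 and adjusted p = 0.155. Over 12 alternatives it stayed positive, between 0.20 and 0.33, and uncalled, with adjusted p between 0.107 and 0.596. The row was below the array median on all 6 arrays.

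The remaining genes of cluster A were close to 0. Hoxa2, known from the hindbrain and second pharyngeal arch, lay between 202 and 243 units (-0.02, SE 0.08), and both extremes were OPN arrays. Hoxa4 lay between 140 and 182 units (0.03, SE 0.10), again with both extremes on OPN. Hoxa7, a gene of the thoracic region and of blood progenitors, had 230, 215 and 212 units on PT and 237, 225 and 232 on OPN. It differed by 0.07 (SE 0.07, adjusted p = 0.664), with the smallest error of the 22. The cluster's median was 0.03, with 4 of 5 genes above 0, but it turned to -0.03 with equal array medians.

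In cluster B, Hoxb3, a gene of the hindbrain and neck that is also active in blood progenitors, had 962, 924 and 791 units on PT 1, 2 and 4 and 894, 866 and 826 on OPN 2, 3 and 4. The PT arrays spread over the whole OPN range, and the difference was -0.04 (SE 0.09, adjusted p = 0.864). Hoxb4, a regulator of blood stem cell renewal, had 289, 307 and 315 units on PT and 312, 322 and 284 on OPN, a difference of 0.01 with a 95% interval from -0.16 to 0.18. Hoxb7 had 437, 449 and 362 units on PT and 406, 382 and 402 on OPN (-0.06, SE 0.09), and here too the OPN arrays lay inside the PT range. Hoxb8, which can hold myeloid progenitors in an immature state, had 96.6, 111 and 93.9 units on PT and 95.1, 83.7 and 82.3 on OPN. Its difference of -0.18 (SE 0.09, adjusted p = 0.335) was the lowest of the 22, and OPN 2 overlapped PT 4. Hoxb2, a hindbrain gene, had 107, 107 and 125 units on PT and 100.4, 108 and 92.0 on OPN (-0.15, SE 0.09). Of the 7 genes of cluster B, 5 lay below 0, and the cluster's median of -0.06 stayed below 0 with any 1 array left out. It was -0.13 with equal array medians and -0.14 with quantile normalisation. Equal array medians shift every difference by -0.07, so that setting could not turn the sign. Under both scalings the medians of clusters A, C and D lay below 0 as well.

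Paralogs of 1 number were set side by side. All 4 genes numbered 4 were measured, and Hoxa4 (0.03), Hoxb4 (0.01), Hoxc4 (0.06) and Hoxd4 (0.01) all had adjusted p of at least 0.750. Hoxc4 had 220, 204 and 197 units on PT and 207, 228 and 215 on OPN. Hoxd4 had 297, 278 and 333 units on PT and 330, 289 and 293 on OPN, and in both genes the arrays were interleaved. Of the genes numbered 5, Hoxc5 lay between 80.3 and 99.8 units (-0.03, SE 0.09) beside Hoxa5 at 0.27. Of those numbered 9, Hoxb9 and Hoxc9 had 0.05 and 0.03 beside Hoxd9 at 0.27. Hoxd3, a gene of the uppermost vertebrae, had 164, 134 and 129 units on PT and 163, 182 and 143 on OPN (0.18, SE 0.11), while Hoxb3 had -0.04. Hoxd1, known from rodent sensory neurons, had 494, 524 and 454 units on PT and 483, 472 and 415 on OPN (-0.10, SE 0.09), with the arrays of both coatings interleaved. Differences between paralogs were not tested.

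Averages over the HOX genes also differed between arrays of 1 coating. With each gene centred on its own mean, the 22 genes averaged 0.041, -0.014 and -0.027 on PT 1, 2 and 4 and 0.037, 0.021 and -0.057 on OPN 2, 3 and 4 (log2). The highest and the lowest average thus fell on different coatings, and the spread within each was larger than the difference between them, 0.00012. Cluster C averaged 0.11 on PT 1 and -0.11 on PT 4, the widest span within a coating. Cluster B averaged 0.067, 0.020 and 0.022 on PT and 0.046, -0.027 and -0.13 on OPN, so that OPN 4 stood lowest. Cluster A averaged 0.14 on OPN 3 and between -0.067 and -0.002 on the other arrays. The coefficient of variation of single genes within a coating ran from 1.33% for Hoxd10 on OPN to 20.3% for Hoxb9 on PT.

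Partners of HOX proteins gave 2 calls among 10 measured, beside 5.05% of all rows called higher. Meis1, a homeodomain partner of HOX and PBX, rose from 154 ± 2.46 to 203 ± 6.60 units on OPN (SD, n = 3), a log2 difference of 0.36 (SE 0.07, adjusted p = 0.0123). Pbxip1, whose product binds PBX and keeps it from DNA, rose by 0.38 (SE 0.09, adjusted p = 0.0378). Neither call held without OPN replicate 2 or 3, and Pbxip1 was also lost without any 1 PT array (adjusted p up to 0.0714 for Meis1 and 0.155 for Pbxip1 with 1 array left out). The relatives Meis3 (0.25) and Meis2 (0.31) did not pass (adjusted p = 0.0886 and 0.286). The PBX genes Pbx2 (0.06), Pbx3 (-0.05) and Pbx4 (-0.08) and Pknox1 (-0.02) were near 0, as was Tgif2 (0.05), with Tgif1 at 0.16. Their median was 0.11.

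Some other regulators of limb patterning passed the test. Of 25 measured genes of this list, 6 rose on OPN and 0 fell, beside 5.05% and 0.77% of all rows, with a median of 0.14. Prrx1, a marker of limb bud mesenchyme, rose 3.54-fold on the log2(signal + 16) scale, from 122, 102 and 164 units on PT to 466, 546 and 468 on OPN (adjusted p = 0.00012). Twist1, a mesenchymal factor that restrains osteoblast maturation, rose 2.84-fold on the same scale, from 74.3, 40.9 and 74.0 units to 205, 192 and 214 (adjusted p = 0.000895). Dlx5 (0.81), Gli3 (0.77), Shox2 (0.52) and Tbx15 (0.42) also rose, and Dlx5 is counted again among the osteoblast markers below. The Gli3 call was lost without PT replicate 1 or 2 (adjusted p up to 0.0658) and that of Tbx15 when replicate 2 or 4 of either coating was left out (up to 0.109). All 6 had mean signals over all arrays within the range of the HOX rows, 93.2 to 877 units. The PT means of Twist1 (63.1) and Gli3 (68.9) lay below that range. Tbx5, which marks the forelimb, and Tbx4 and Pitx1, which mark the hindlimb, had differences of 0.14, -0.06 and 0.05 and adjusted p of at least 0.558.

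Genes that flank the clusters gave 1 call. Of 17 measured, with at most 3 protein-coding genes between each and the nearest HOX gene in GRCr8, 1 rose and 0 fell, with a median of 0.02. That is near the 5.05% of all rows called higher. The filter on dim rows called 3 of the 14 it left higher (1641 of 14608 rows). The intensity trend called 3 of 17 higher (1953 of 29215 rows). Next to Hoxa13 and Hoxd13, Evx1 had -0.05 and Evx2 -0.02, and beside Hoxd1 the mitochondrial import gene Mtx2 had 0.35 (adjusted p = 0.114). The gene that rose, Snx10, encodes a sorting nexin needed by osteoclasts and had a log2 difference of 1.35 (SE 0.08, adjusted p = 2.09e-05).

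The uncalled HOX genes stood beside large differences in cell type markers on the same arrays. Over all rows 5.05% were called higher and 0.77% lower. Of 17 osteoblast markers 16 rose on OPN, with a median of 2.40 and summed signals of 66413 to 74410 units on OPN and 12554 to 13477 on PT. Of 15 stromal markers 13 rose, with a median of 1.47 and sums of 11501 to 12550 against 3340 to 3496. Of 15 macrophage markers 10 fell, with a median of -0.45 and sums of 11085 to 11866 on OPN against 15455 to 16208 on PT. Haematopoietic progenitor markers, where HOX genes of low number are active, had 1 of 9 called, Cd34 (0.64), near the share over all rows. Their median was -0.01, with 4 above and 5 below 0. Their sums were 3656 to 3827 units on OPN against 3732 to 4066 on PT. Osteoclast and endothelial markers had 7 of 10 risen each, and of 11 chondrocyte markers Col11a1 and Col2a1 rose and Sox6 fell. The higher chondrocyte calls dropped to 1 without PT replicate 2 or 4 or without OPN replicate 2 or 3, and the lower call to 0 without OPN replicate 2. Of 7 erythroid markers Rhag fell, a call lost when any array but PT replicate 1 was left out and with an offset of 1, while both scalings called 2 lower. None of 9 skeletal muscle markers passed, a count near those shares. Of 9 granulocyte markers 0 passed with all arrays, also near them, but 5 were called higher without PT replicate 4. In that setting 1357 of 29215 rows were called higher. No listed gene was at 0, the lowest signal being 40.9 units. These lists and the HOX genes were chosen with earlier results of these data known, and the part of cell composition in the HOX signals was not tested.

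**Figure D4:**
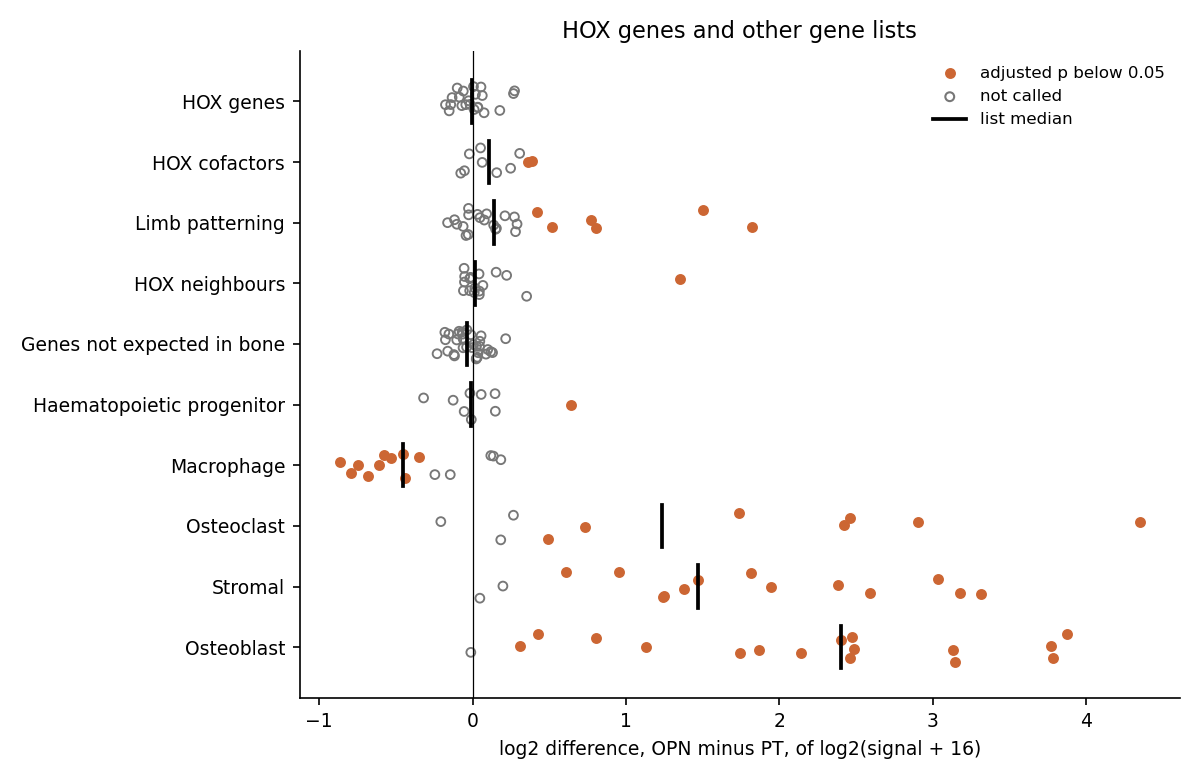
Log2 difference (OPN minus PT) of every measured gene of 10 lists, filled where the adjusted p was below 0.05 and open otherwise, with a black bar at the list median. HOX genes spread from -0.18 to 0.27 with 0 called, and 0 genes not expected in bone were called, beside 5.82% of all rows. The medians of the osteoblast and stromal lists lie at 2.40 and 1.47.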

How the data were processed

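The authors deposited a linear intensity for each row on each array, summarised by PLIER in Expression Console, per the submitters' processing notes. Neither software versions nor genome build, background correction or scaling was given in the sources used here. Groups and replicate numbers came from sample titles. RNA input to labelling was 300 ng per the labels' protocols.

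Of 29215 rows, 15310 had 1 gene symbol, 323 several and 13582 none; HOX rows were taken by symbol, and all 22 symbols were unchanged in GRCr8 by Entrez identifier. Values were transformed as log2(intensity + 16). A linear model with a coating term was fitted to every row in limma 3.58.1 under R 4.3.3 (lmFit, then eBayes), with Benjamini-Hochberg adjustment over all rows, a threshold of 0.05 and no filter. Intervals are 95% from the moderated spread. The test was checked on simulated data with independent noise and shifts larger than any HOX difference seen here. The check therefore does not speak to differences of the size seen in the HOX genes.

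The members and all gene lists were chosen with earlier results of these data known. Named were all HOX genes and cofactors, Tbx4, Tbx5 and Pitx1, and up to 4 called members per direction, by p, of the limb, neighbour, homeobox and chromatin lists. Cell type lists are given as counts and sums. The called Gli3, Tbx15, Cd34, Col11a1, Col2a1, Sox6 and Rhag and uncalled genes such as Mtx2, Irx1 and Bmi1 were chosen after their values were seen. Alternatives were other offsets (1 and 64), 2 scalings, a filter on dim rows, an intensity trend, a replicate block and each array left out. The number of arrays, 6, limits the precision. Promoters came from RefSeq (GRCr8).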

Additional observations from a re-analysis of the deposited data

How the results depend on the processing

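The 22 HOX genes stayed uncalled in all 13 alternatives. The 95% intervals of the members tested lay inside a 2-fold difference in each. With the filter on dim rows 8 HOX genes were left and none of cluster C, and using another row per gene could not be run, since each HOX gene has 1. Equal array medians shift the median of all rows by -0.07 (log2), and under both scalings small differences changed sign. With equal array medians these were Hoxa4 (-0.030), Hoxa11 (-0.047), Hoxb4 (-0.055), Hoxb9 (-0.010), Hoxc4 (-0.0018), Hoxc9 (-0.032), Hoxd4 (-0.059), Pbx2 (-0.0024), Tgif2 (-0.013) and Pitx1 (-0.017). With quantile normalisation they were Hoxa4 (-0.022), Hoxa11 (-0.041), Hoxb4 (-0.067), Hoxc4 (-0.0037), Hoxc9 (-0.0083), Hoxd4 (-0.071), Pbx2 (-0.011), Tgif2 (-0.025) and Pitx1 (-0.017). With 1 array left out, signs changed within -0.092 to 0.034 for Hoxa2, -0.063 to 0.11 for Hoxa4, -0.016 to 0.067 for Hoxa11, -0.13 to 0.011 for Hoxb3, -0.026 to 0.061 for Hoxb4, -0.069 to 0.19 for Hoxb9, -0.076 to 0.057 for Hoxc5, -0.099 to 0.12 for Hoxc9, -0.051 to 0.073 for Hoxd4 and -0.25 to 0.027 for Hoxd13. The same held for Pbx3 (-0.15 to 0.025), Pbx4 (-0.14 to 0.033), Pknox1 (-0.040 to 0.0068) and Pitx1 (-0.011 to 0.11). The median of the 8 paralogs 9 to 13 was -0.091 with equal array medians and -0.088 with quantile normalisation. It lay between -0.081 and 0.033 with 1 array left out. The filter left 2 of these genes, Hoxb13 and Hoxd13, with a median of -0.11. Limb patterning genes called higher numbered 3 of 25 with the block and 2 of the 11 left by the filter. The filter took out Twist1, Dlx5, Gli3, Shox2 and Tbx15, so their calls could not be repeated there. Cofactor genes called higher numbered 1 with an offset of 1, 0 with the block and 0 to 2 with 1 array left out. The filter took out Meis1 and called 1 of the 7 left. Over all rows, higher calls ranged from 928 to 1357 and lower calls from 95 to 181 with 1 array left out, both fewest without OPN replicate 3. Lower calls numbered 382 with an offset of 64, 560 and 745 with the scalings and 516 with the trend. With the filter 554 of the 14608 rows left were called lower and 1641 higher.

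Replicate numbers 2 and 4 occur on both coatings. The labels do not say that a number marks a shared preparation, so the numbers were not taken as pairs. Deviations of same-numbered arrays correlated at -0.08 and 0.07, and those of other array pairs between -0.11 and 0.18. With so few arrays these values cannot decide whether the numbers mark pairs. With the replicate number as a block, which leaves 1 residual degree of freedom, 618 rows were called higher and 48 lower, and 0 HOX genes. Hoxa4 (-0.11), Hoxa11 (-0.028), Hoxb3 (0.0077), Hoxb4 (-0.060), Hoxb7 (0.0017) and Hoxc5 (0.071) changed sign. The causes of these changes were not tested.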

Other observations

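Homeobox genes outside the HOX clusters gave 2 calls among 29 measured, near the 5.05% of all rows called higher, with a median log2 difference of 0.05. Irx5, an Iroquois factor with a role in limb and skeletal patterning, had 56.9, 86.2 and 78.9 units on PT and 199, 235 and 176 on OPN. This was a rise of 2.45-fold on the log2(signal + 16) scale (adjusted p = 0.000842). The Irx5 mean over all arrays, 139 units, lay in the range of the uncalled HOX rows, but its PT mean of 74.0 lay below it. Irx3, the neighbour of Irx5, rose by 0.32 (adjusted p = 0.0376), a call lost with either scaling and with 5 of the 6 single arrays left out. Irx1 (0.34) did not pass (adjusted p = 0.0807).

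Regulators of HOX chromatin were not called, 0 of 17 in limma beside 5.82% of all rows, with a median of 0.04. At that share the count of 0 lies near the background. The Polycomb genes Bmi1 (0.25, adjusted p = 0.0960) and Ezh2 (-0.19, adjusted p = 0.220) and the insulator gene Ctcf (-0.21, adjusted p = 0.123) did not pass. Quantile normalisation called 3 lower (745 of 29215 rows over the table) and equal array medians 1 lower (560 of 29215). The filter on dim rows left 15 of the list and called 1 lower (554 of 14608 rows) and 1 higher (1641 of 14608). The intensity trend called 1 higher (1953 of 29215 rows).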
